A study of Mus musculus with 4 samples.

Results

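Monocytes of mouse trabecular bone were examined at week 2 of glucocorticoid (GC) exposure. They were taken as the barcodes of the trabecular single-cell RNA-Seq libraries with at least 1 UMI (a counted RNA molecule) of Csf1r, the receptor for the growth factor Csf1, and at least 4 UMIs of Csf1r, Ly6c2, Ccr2 and F13a1 together. Barcodes rich in neutrophil transcripts (S100a8 and S100a9 at 3% of UMIs or more, or Ngp, Camp and Ltf at 1% or more), in progenitor granule transcripts (Elane, Mpo and Prtn3 at 0.5% or more), or with any UMI of the plasmacytoid gene Siglech or the B cell gene Cd79a were left out. By this rule 225 of 3977 control barcodes and 226 of 4788 GC barcodes were monocytes, 451 of 8765 in all. No monocyte barcode was shared between the libraries.

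The mice were 20-week-old male C57BL/6J mice that carried, under the skin, a slow-release pellet of prednisolone (6.25 mg/kg/d) or a placebo pellet, and bone was collected at week 2. The marrow was flushed out before the bone was crushed and treated with Collagenase II, Dispase II and DNase I, so the cells are those that stayed with the bone fragments. Each condition had 1 library, and the number of mice behind a library was not given in the sources used here. Differences between conditions therefore had no replicate check. No test was run, and all 95% intervals cover counting error only. Callus libraries of the same series (566 of 7133 control and 501 of 7318 GC barcodes by the same rule) served as a second tissue. The callus is the repair tissue of a fracture at week 2, so these mice also carried a fracture, and the labels give them the pellet while the study describes daily injection of the same dose. Tissue, fracture and route therefore cannot be told apart in any comparison with callus.

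Monocytes are made in bone marrow from granulocyte-monocyte progenitors under the control of the transcription factors Irf8, Klf4 and Spi1, and classical Ly6c2-high cells leave the marrow through the chemokine receptor Ccr2. In bone they are a source of macrophages and of osteoclasts, the cells that resorb bone, with Csf1 as the main survival signal. Prednisolone acts through the GC receptor Nr3c1, which raises genes such as Fkbp5, Tsc22d3 and Per1 and restrains many inflammatory and interferon-driven genes.

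The genes that the rule used describe the selection and were not results. Csf1r was at 236 CPM (the gene's UMIs per 1000000 UMIs, both pooled over the monocytes of a library) in the control library and 181 CPM in the GC library. Ly6c2 was at 2212 and 1908 CPM, and Ccr2 at 838 and 604 CPM. F13a1, the A chain of coagulation factor XIII, was at 956 and 1229 CPM. Near the thresholds, 1 control and 5 GC monocytes had a sum of exactly 4 UMIs over the 4 genes, and 2 and 6 barcodes that met every other condition had 3. The highest S100a8 and S100a9 share inside the rule was 2.53% (control) and 2.93% (GC), against a lowest share of 3.39% and 3.41% among the 59 and 132 barcodes that failed at that step alone. For Elane, Mpo and Prtn3 the highest share inside was 0.488% and 0.469%, and the lowest outside was 0.506% and 0.551% of the 38 and 47 barcodes that failed there alone.

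The cells carried a monocyte profile beyond these genes. Lyz2, the lysozyme of myeloid cells, had at least 1 UMI in 225 of 225 control and 225 of 226 GC monocytes, at 11120 and 7559 CPM. Among genes the rule did not use, Fn1 (fibronectin) was at 1333 and 1444 CPM, a log2 ratio of 5.00 and 4.70 over all other trabecular barcodes of the library. These log2 ratios, here and below, had 5 CPM added to both levels unless stated. Vcan, the proteoglycan versican, was at 239 and 453 CPM (log2 ratio 4.24 and 4.56). S100a4 followed at 1984 and 1616 CPM (4.67 and 4.18), Ms4a6c at 900 and 916 CPM, the lysosomal protease Ctss at 753 and 561 CPM, and the chemokine Ccl2 at 251 and 274 CPM. These values describe the chosen cells, since every gene of a cell is linked to the genes that chose it.

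Markers of other cell types differed widely in level. The complement gene C1qa of resident macrophages was at 5.15 and 9.31 CPM (18 UMIs in 6 control cells and 35 in 3 GC cells), and Timd4 of the same list had no UMI. The list of 15 genes summed to 139 and 177 CPM, with Hmox1, the heme-degrading enzyme, the most abundant over both libraries together at 39.8 and 87.0 CPM. Ctsk, the collagen-degrading protease of osteoclasts, was at 1.15 and 0.798 CPM, and Calcr, the calcitonin receptor of osteoclasts, had no UMI. The osteoclast list of 10 genes summed to 95.1 and 86.2 CPM, led by the transcription factor Nfatc1, which other blood cells also express, at 40.1 and 33.3 CPM. Of 10 conventional dendritic cell genes Xcr1 and Ccr7 had no UMI, and the list summed to 245 and 181 CPM, led by Cd24a, which is also found on other blood cells. The plasmacytoid dendritic cell list summed to 164 and 125 CPM, led by the transcription factor Tcf4, and the B cell list to 305 and 320 CPM, led by Ighm, with the B cell gene Ms4a1 at 2 and 0 UMIs. Marker lists of T or NK cells summed to 3.15 and 6.65 CPM and of stromal or bone-forming cells to 2.00 and 2.13 CPM. Neutrophil and progenitor transcripts were present at a higher level: 10 neutrophil genes summed to 1048 and 1728 CPM, with Lcn2 leading at 298 and 587 CPM, and 10 progenitor genes to 1204 and 1474 CPM, with Srgn leading at 603 CPM in both. After Srgn came Calr at 366 and 516 CPM and Ctsg at 176 and 252 CPM. The rule genes Prtn3 (727 and 1009 CPM), Elane (208 and 314 CPM) and Mpo (111 and 176 CPM) also remained below their cut. The part of neutrophil and progenitor transcripts in the differences below was not tested. Hemoglobin made up 0.118% of the UMIs of the median control monocyte and 0.135% of the median GC monocyte, and 1 and 4 monocytes held over 5%. Against 16.7% and 10.9% in near-empty droplets (10 to 100 UMIs), this allowed 0.705% and 1.24% of a median monocyte's UMIs to be free RNA.

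**Figure D1:**
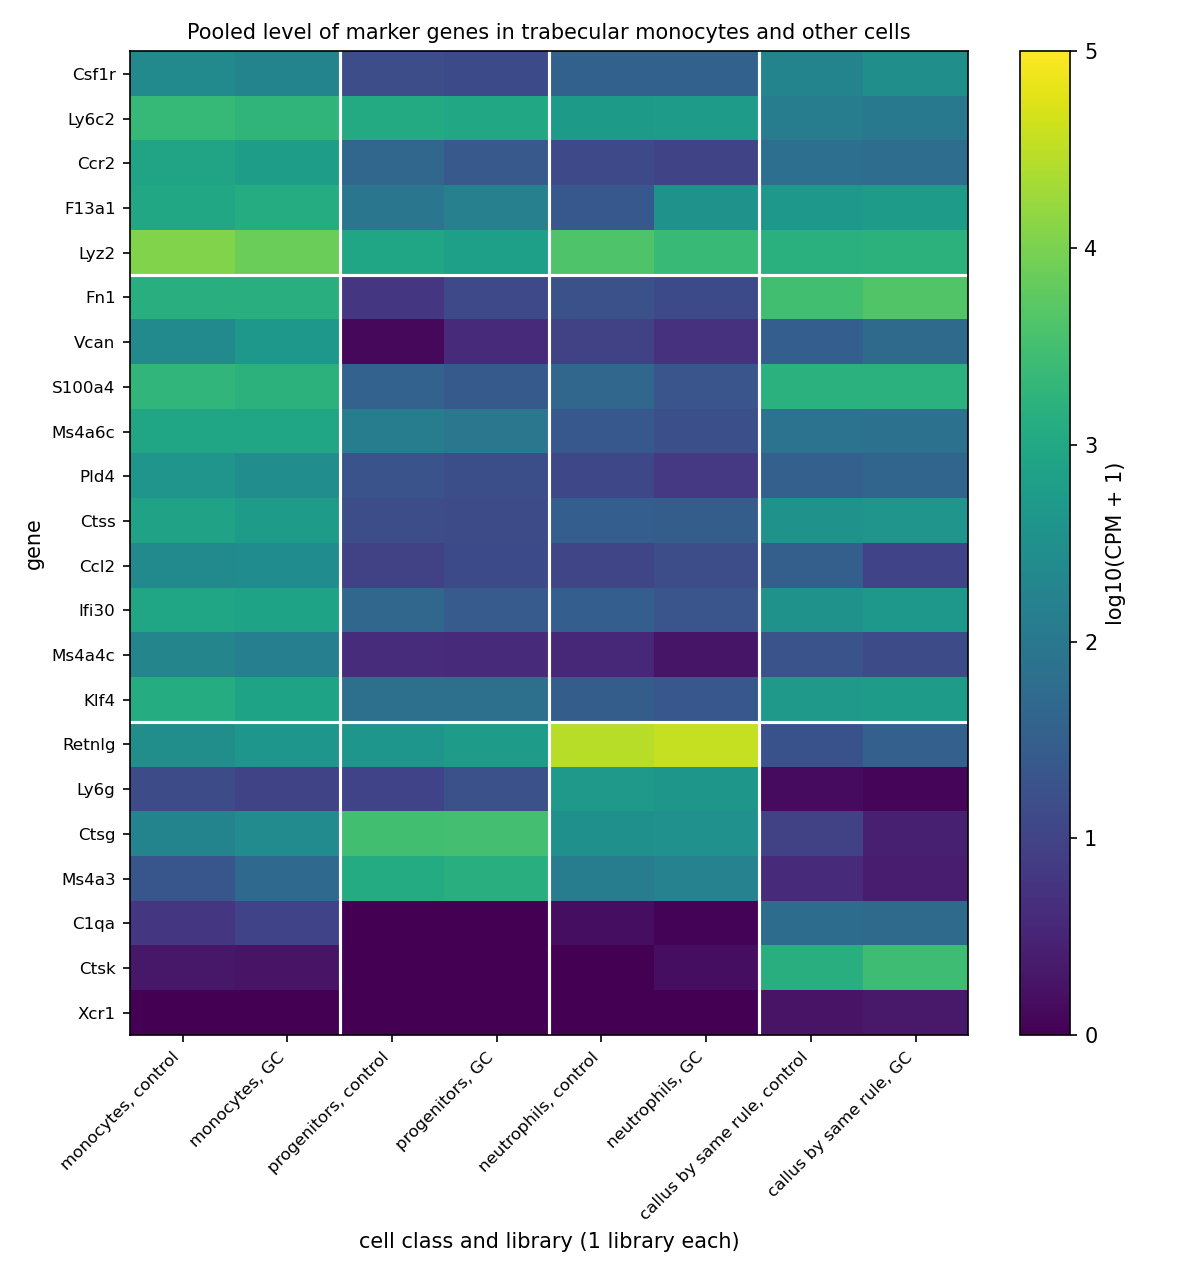
Pooled level of 22 genes (rows; log10 of CPM + 1, color) in trabecular monocytes, progenitors, neutrophils and callus cells chosen by the same rule, 1 column per class and library. White lines set off the genes of the rule with Lyz2 (top), monocyte genes (middle) and genes of other cell types (bottom); Fn1 and Ms4a4c were high in the monocytes and low in progenitors and neutrophils, and Ctsk was high in callus cells only.

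Monocytes were 5.66% of the control barcodes (95% Clopper-Pearson interval 4.96 to 6.42) and 4.72% of the GC barcodes (4.14 to 5.36). The intervals overlapped. The denominators differed in composition: barcodes with over 50% hemoglobin were 4.90% (control) and 9.88% (GC), and barcodes with at least 3 Cd79a UMIs were 8.27% and 0.543%. An alternative added after the data were seen left out the hemoglobin-rich barcodes and every barcode with any Cd79a UMI, a wider cut than at least 3. The control share was then 6.71% and the GC share 5.28%. The median monocyte held 12294 UMIs in the control library (range 1158 to 69873) and 13040 in the GC library (1695 to 62207), with 3357 and 3386 genes. The pooled sums of 3492247 and 3758214 UMIs set the precision of each level below.

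For GC over control, 8201 genes had at least 50 UMIs over both libraries. Their median log2 ratio was 0.01, with quartiles of -0.18 and 0.18. Past 2-fold (log2 ratio beyond 1 either way), 29 genes (0.354%) were higher and 41 (0.5%) were lower in GC monocytes, together 0.854% of the genes. By any amount, 51.4% were higher and 48.6% lower. Of the genes past 2-fold, 6 of the higher and 3 of the lower had over 50% of their UMIs in a single cell of 1 library, so they describe that cell and not the population.

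**Figure D2:**
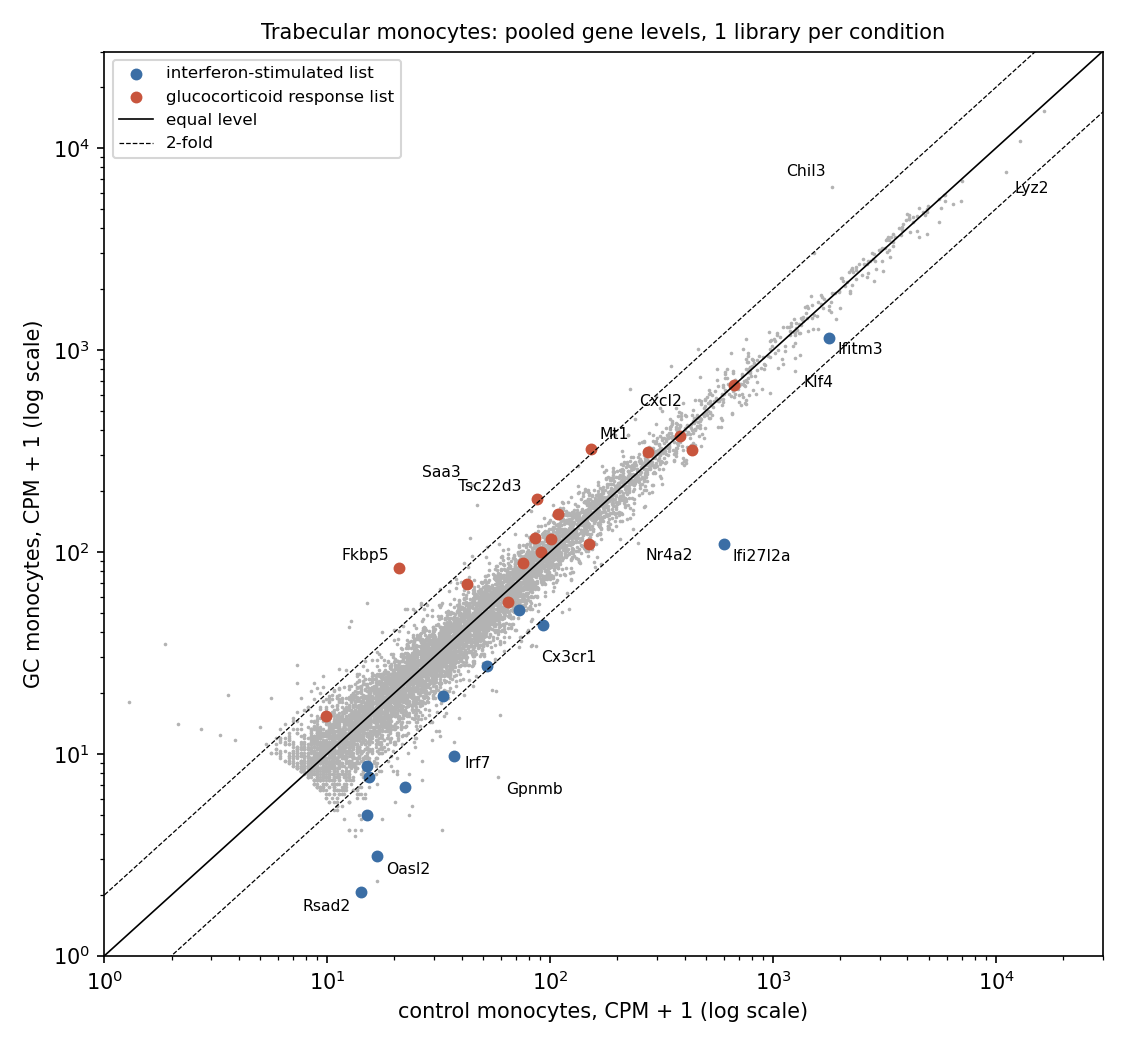
Each point is a gene of trabecular monocytes, with its pooled level in control (horizontal) and GC (vertical) monocytes as CPM + 1 on log axes, 1 library per condition. Interferon-stimulated genes (blue) lie below the line of equal level, Fkbp5, Tsc22d3 and Mt1 of the GC response list (red) lie above it, and Chil3 and Saa3 stand above the dashed 2-fold line.

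GC response genes were higher in part. Of 16 measured genes of a list of known GC targets, 12 were higher and 4 lower in GC monocytes, 3 of them past 2-fold (background 0.354%), with a median log2 ratio of 0.20 against 0.01 over all genes. Fkbp5, the immunophilin that restrains the GC receptor, was at 20.0 CPM in control and 82.2 CPM in GC monocytes (70 and 309 UMIs), 4.10-fold higher (3.16 to 5.40). It had a UMI in 52 of 225 control and 148 of 226 GC monocytes. In neutrophils of the same libraries Fkbp5 was at 13.2 and 102 CPM, and in progenitors at 26.0 and 32.7 CPM. Fkbp5 lies at chr17:28399094-28517527, minus strand (GRCm38).

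Tsc22d3, which encodes the GC-induced leucine zipper protein GILZ, was at 85.9 and 182 CPM, 2.12-fold higher (1.84 to 2.43), and had a UMI in 135 and 186 monocytes. Mt1, a metal-binding metallothionein, was at 151 and 321 CPM, 2.12-fold higher (1.91 to 2.35), while progenitors had 511 and 539 CPM. Zbtb16, the transcription factor PLZF, had 1 UMI in the control and 42 in the GC monocytes, in 1 and 32 cells, a ratio of 39.0 with an interval from 6.63 to 1580. Fkbp5, Tsc22d3, Mt1 and Zbtb16 were higher in the GC library in pooled level and in the number of cells with a UMI. Zbtb16 had too few UMIs to count among the measured genes of the list, as did Mt2, Cd163 and Pdk4. These others did not share its rise. Mt2, another metallothionein, was at 6.01 and 6.39 CPM, Cd163 was lower at 2.58 and 0.266 CPM, and Pdk4 had no UMI. With 20 CPM added in place of 5, Tsc22d3 and Mt1 were no longer past 2-fold, nor was Tsc22d3 after thinning to 1000 UMIs per cell.

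Other genes of the list were higher by less, near equal or lower. Klf9, a transcription factor, was at 107 and 153 CPM (log2 ratio 0.49) in monocytes, where neutrophils went from 12.7 to 119 CPM. Il1r2, the decoy receptor for interleukin-1, was at 41.2 and 68.4 CPM (0.67), and Txnip, which binds thioredoxin, at 84.5 and 116 CPM (0.43). The clock gene Per1 (log2 ratio 0.20) and the phosphatase gene Dusp1 (0.19) stood just above the upper quartile of all genes. Nfkbia (0.01), which encodes the inhibitor of NF-kB, and Anxa1 (-0.02), which encodes annexin A1, stood close to the median of all genes. The kinase gene Sgk1 was at 148 and 108 CPM (-0.44) and the mRNA-decay factor Zfp36 at 429 and 318 CPM (-0.43), both lower in the GC library. Nr3c1 itself was at 65.6 and 54.0 CPM (-0.26). The mineralocorticoid receptor Nr3c2 had no UMI. Of the receptor's partners, the chaperone Hsp90aa1 was at 392 and 545 CPM (0.47), the cochaperone Fkbp4 at 63.9 and 102 CPM (0.63) and Hsd11b1, which regenerates active GC, at 32.6 and 46.0 CPM (0.44).

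The promoters of the list were read for the letters of a GC response element, GNACA, any 3 bases and TGTNC, on either strand, in the RefSeq windows from 250 bases before to 50 bases after a gene's start (GRCm38.p6). The letters stood in 3 of 18 list genes with a window (Mt1, Txnip and Sgk1) and in 145 of 27025 genes (0.537%). The 200 bases before the start are shown for Mt1, higher in GC monocytes, and Sgk1, lower, with the match in capitals. They cover chr8:94178889-94179088 and chr10:21993690-21993889 and are written along the plus strand, on which both genes lie; the Sgk1 sequence is 1 of 6 windows of that gene.
Mt1: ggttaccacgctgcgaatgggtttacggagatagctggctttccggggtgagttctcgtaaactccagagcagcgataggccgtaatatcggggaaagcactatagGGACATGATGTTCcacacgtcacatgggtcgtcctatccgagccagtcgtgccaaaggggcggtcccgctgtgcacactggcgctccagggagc
Sgk1: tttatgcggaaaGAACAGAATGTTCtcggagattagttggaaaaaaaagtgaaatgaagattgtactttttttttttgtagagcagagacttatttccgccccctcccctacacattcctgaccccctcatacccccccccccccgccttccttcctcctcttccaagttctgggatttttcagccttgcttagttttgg
Both genes held the letters and stood on opposite sides of equal level. The windows of Fkbp5 and Tsc22d3 held no match, which says only that these letters are not in them.

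Interferon-stimulated genes were lower throughout. All 13 measured genes of the list were lower in GC monocytes (48.6% of all genes were), 7 of them past 2-fold (background 0.5%), with a median log2 ratio of -1.03. The summed level of the list was 2802 CPM in control and 1441 CPM in GC monocytes. Ifi27l2a, a small interferon-induced membrane protein encoded at chr12:103442167-103443680 (minus strand), was at 602 and 108 CPM (2104 and 405 UMIs), 5.59-fold lower (5.02 to 6.23). It had a UMI in 185 control and 97 GC monocytes, and its level in the median cell was 487 CPM and 0. After each cell was thinned to 1000 UMIs, 41.5% of control and 11.6% of GC monocytes kept an Ifi27l2a UMI as the exact mean over all draws, with 48.4% and 12.4% in 1 draw and 40.0% and 14.2% in another. Cells with over 50% hemoglobin kept 0.255% and 0.102% as that mean.

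Irf7, the transcription factor that amplifies the interferon response, was at 36.1 and 8.78 CPM (126 and 33 UMIs), 4.11-fold lower (2.78 to 6.23). Rsad2, the antiviral protein viperin, had 46 and 4 UMIs in 21 and 4 cells (log2 ratio -1.58). Hemoglobin-rich barcodes held more of it, at 669 and 331 CPM, and near-empty droplets had 86.2 and 53.2 CPM. Oasl2, of the oligoadenylate synthetase family, had 55 and 8 UMIs (-1.54), and Ifi47, an interferon-induced GTPase, was at 21.2 and 5.85 CPM (-1.27). Xaf1 had 49 and 15 UMIs (-1.08), and Ifi204, a DNA sensor of the Ifi200 family, at 91.9 and 42.6 CPM (-1.03).

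The remaining 6 measured genes were lower and within 2-fold on this scale. Stat2, a transducer of type I interferon signals, was at 14.3 and 6.65 CPM (-0.73). Ifitm3, which blocks virus entry and was the most abundant gene of the list, was at 1778 and 1149 CPM (-0.63). Zbp1, Gbp2 and Bst2 had log2 ratios of -0.67, -0.58 and -0.46. Of the 9 genes with under 50 UMIs, Isg15, the ubiquitin-like protein, had 32 and 4 UMIs, Ifit3 had 15 and 0, Oasl1 21 and 6, Rtp4 20 and 3, and Usp18 12 and 2. All 22 genes of the list with a row had fewer UMIs in the GC library. Of the 7 genes past 2-fold, Ifi27l2a alone stayed past it with 20 CPM added in place of 5, which shrinks the ratio of low genes. Ifi204 was also within 2-fold as a mean over cells, with S100a8 and S100a9 under 1.5%, and outside the cell cycle.

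Other trabecular cells shared the lower level in part, and callus cells did not show it over the list. Over the 13 genes the median log2 ratio was -0.62 in neutrophils, -0.25 in progenitors and -0.62 in near-empty droplets of the same libraries, and 0.37 in callus cells chosen by the same rule. Ifi27l2a had a log2 ratio of -1.63 in neutrophils, -1.82 in progenitors (16.4 and 1.06 CPM) and -2.72 in near-empty droplets (153 and 18.8 CPM). In callus cells it had -0.05. Ifitm3 had -0.29 in neutrophils and -0.40 in callus cells. Among monocytes outside the cell cycle the list's median was -1.07, and among cycling monocytes -0.53. Whether the library, a mouse or the treatment set these levels cannot be told apart with 1 library per condition.

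**Figure D3:**
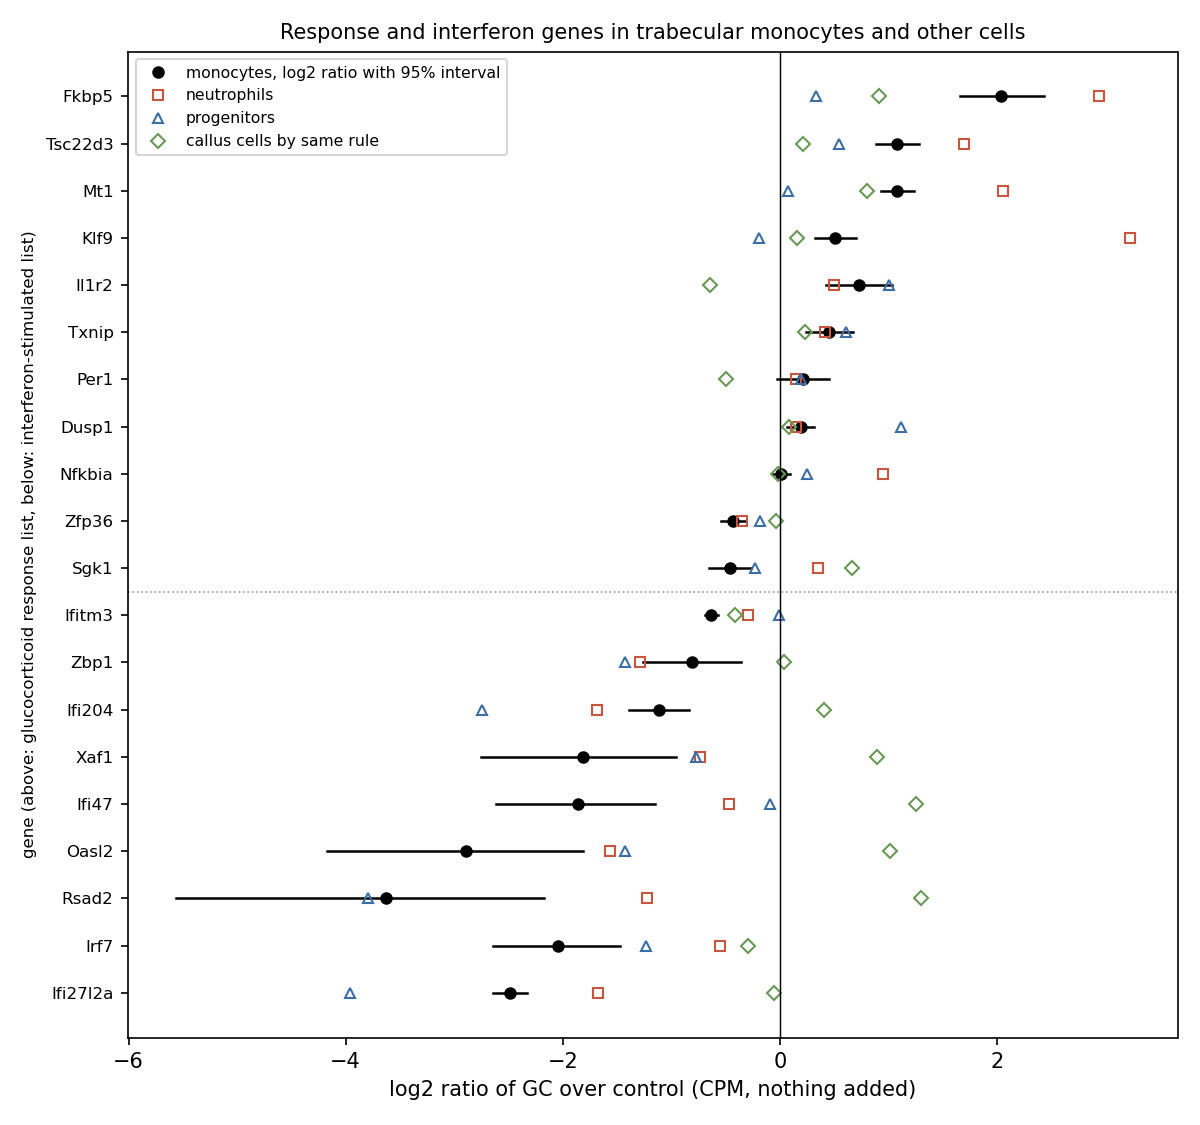
Log2 ratio of GC over control, from CPM with nothing added, for 11 GC response genes (above the dotted line) and 9 interferon-stimulated genes (below). Black points are trabecular monocytes with 95% counting intervals, and open symbols are neutrophils, progenitors and callus cells; Ifi27l2a to Ifitm3 lie left of 0 in monocytes, and callus cells lie right of 0 for Rsad2, Oasl2 and Ifi204.

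Promoters of the interferon list were searched for GAAA, any 2 bases and GAAA on either strand, the core letters of an interferon-stimulated response element, a search added after the values were seen. The letters stood in 10 of 16 list genes with a window (62.5%), in 257 of 6618 genes tested in monocytes (3.88%) and in 1079 of 27025 genes (3.99%). Isg15 and Rsad2 are shown because both had 4 UMIs left in GC monocytes. The 200 bases before the start, at chr4:156200819-156201018 and chr12:26456453-26456652, are written along the minus strand, the strand of both genes, with matches in capitals.
Isg15: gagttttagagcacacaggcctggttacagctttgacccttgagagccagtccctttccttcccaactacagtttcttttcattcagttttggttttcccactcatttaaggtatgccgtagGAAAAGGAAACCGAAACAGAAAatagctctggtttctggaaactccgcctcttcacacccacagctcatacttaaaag
Rsad2: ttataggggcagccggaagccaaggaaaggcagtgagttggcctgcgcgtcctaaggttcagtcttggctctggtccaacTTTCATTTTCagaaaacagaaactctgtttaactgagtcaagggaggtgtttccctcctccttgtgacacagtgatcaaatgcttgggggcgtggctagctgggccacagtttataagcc
Isg15 held 3 overlapping copies, and Rsad2 held 1 copy on the opposite strand. Of the genes with lower levels named above, Irf7, Oasl1, Oasl2, Ifi47 and Xaf1 had no match in their windows. Ifi27l2a, Ifi204, Zbp1, Rtp4 and Usp18 had no window and were not searched.

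Of the 10 genes with the lowest ratios among those at 50 CPM or more in either library, Ifi27l2a was on the interferon list. Slfn5, of the Schlafen family, was at 58.4 and 14.6 CPM, Ifi211 at 55.8 and 19.4 CPM and Ifi203 at 81.3 and 33.3 CPM, and the Ifi200-family genes share sequence and may share reads. Cx3cr1, the fractalkine receptor that is high on patrolling monocytes, was at 82.2 and 33.5 CPM (2.45-fold lower, 1.98 to 3.05) and had a UMI in 122 and 66 monocytes. Nr4a2, an orphan nuclear receptor, was at 245 and 109 CPM (2.24-fold lower, 1.99 to 2.53). Vegfa, the vessel growth factor, was at 85.0 and 33.0 CPM, and in neutrophils at 140 and 36.2 CPM. Cd83, a surface protein of activated antigen-presenting cells, was at 53.5 and 19.7 CPM. Selenop, a selenium carrier, was at 121 and 51.1 CPM, with 21.9% of its control UMIs in 1 cell. Gpnmb, a lysosomal glycoprotein of macrophages, was at 57.3 and 6.65 CPM, but 96% of its control UMIs came from 1 cell. With 20 CPM added, Cd83, Cx3cr1, Ifi203, Ifi211, Selenop and Vegfa were within 2-fold, and as means over cells Cd83, Cx3cr1 and Selenop were. Without the cell with most of its UMIs in each library Selenop came to -0.88.

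Among the 10 highest, Chil3 had the highest level. Chil3, the secreted chitinase-like protein Ym1 encoded at chr3:106147554-106167564 (minus strand), was at 1835 CPM in control and 6429 CPM in GC monocytes (6410 and 24161 UMIs), 3.50-fold higher (3.41 to 3.60). Its level in the median cell was 1517 and 6421 CPM, and 195 and 224 monocytes had a UMI. After thinning, 60.3% and 84.1% of monocytes kept a Chil3 UMI as the mean over all draws, beside 4.96% and 19.4% of hemoglobin-rich cells. The gene was also higher in GC neutrophils (175 and 6067 CPM) and GC progenitors (931 and 4889 CPM), and free RNA at the shares given above would supply 7.49 and 37.8 CPM to monocytes. Chil3 was thus higher in monocytes, neutrophils and progenitors of the GC library, where the neutrophil and progenitor classes can share barcodes. In callus cells chosen by the same rule Chil3 was higher too (log2 ratio 1.30).

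Saa3, an acute-phase apolipoprotein, was at 43.5 and 213 CPM, 4.89-fold higher (4.11 to 5.86), and had a UMI in 16 control and 43 GC monocytes. A single cell held 34.2% of its control UMIs. Cxcl2, a neutrophil-attracting chemokine, was at 228 and 636 CPM (2.79-fold higher, 2.58 to 3.03), where neutrophils had 5884 and 6383 CPM and near-empty droplets 714 and 806 CPM. Fbxl5, an iron-sensing ubiquitin ligase subunit, was at 42.7 and 116 CPM, with a UMI in 98 and 163 cells. It was higher in GC neutrophils too (328 and 619 CPM), and near-empty droplets had 71.6 and 115 CPM. Ms4a3, a marker of granulocyte-monocyte progenitors, was at 21.2 and 50.8 CPM. Hba-a1 and Hba-a2, the hemoglobin alpha chains, were at 458 and 1006 CPM and at 347 and 827 CPM, and 59.5% of the control Hba-a1 UMIs and 29.0% of the GC ones came from 1 cell. Spp1 (osteopontin) was at 46.1 and 169 CPM and Ctla2a had 49 and 207 UMIs, with 67.0% and 82.1% of their GC UMIs in 1 cell each. The remaining one of the 10 was Fkbp5. Ms4a3 was within 2-fold with 20 CPM added and as a mean over cells, as were both hemoglobin genes without the monocytes that held over 5% hemoglobin. Both hemoglobin genes were also within it with a sum over the 4 rule genes of at least 3 or at least 6 UMIs. The same held for them with the highest doublet scores left out. Without the cell with most UMIs of the gene in each library Spp1 and Ctla2a were within 2-fold.

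**Figure D4:**
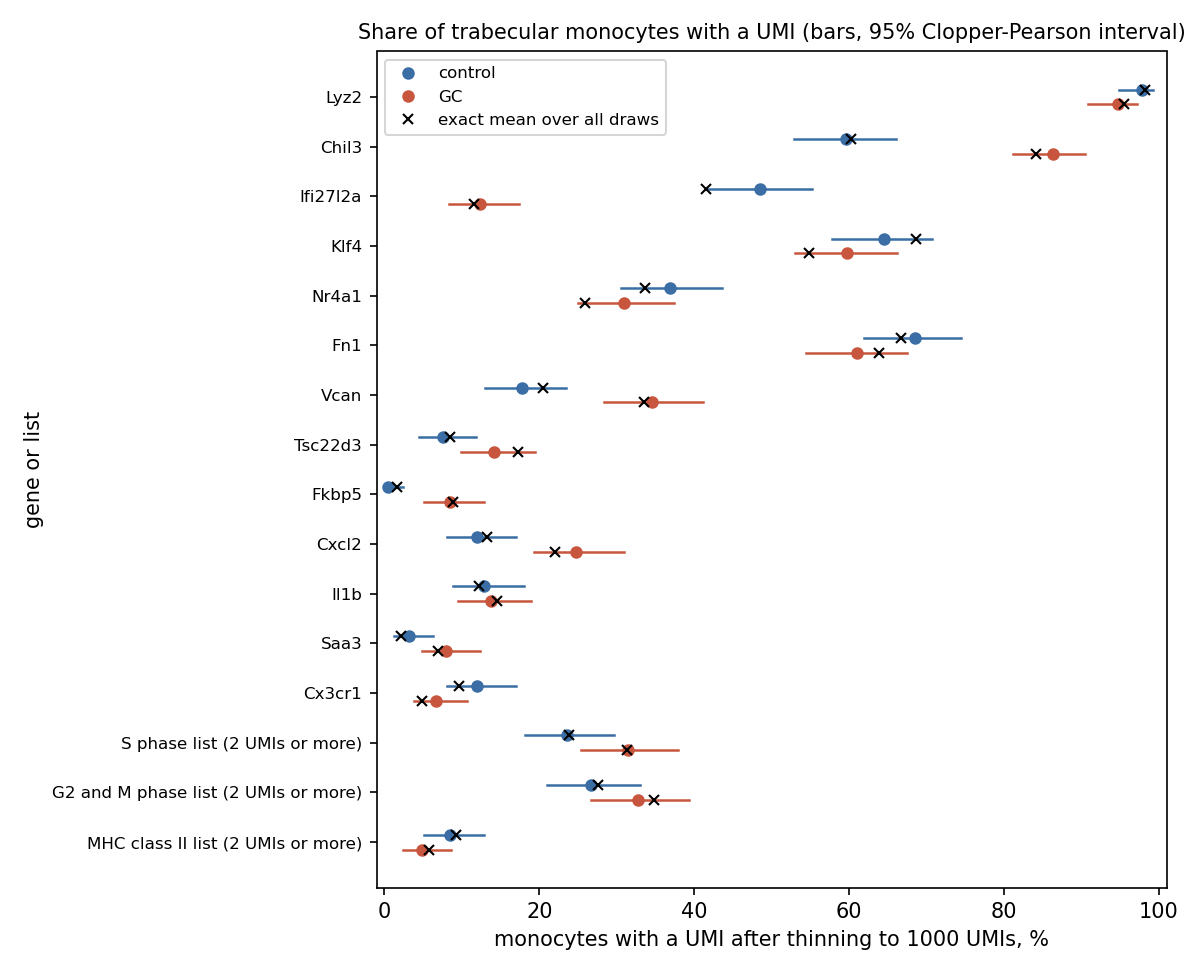
Share of monocytes with at least 1 UMI of a gene, or at least 2 UMIs of a list, after each cell was thinned to 1000 UMIs, for 225 control (blue) and 226 GC (red) monocytes; points are 1 draw with 95% Clopper-Pearson intervals and crosses the exact mean over all draws. The intervals of Chil3 and Ifi27l2a do not overlap between the libraries in this draw or in a second one, while for Vcan, Fkbp5 and Cxcl2 they are apart in this draw and overlap in the second.

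Genes of monocyte identity stood mostly slightly lower in the GC library. Of 18 monocyte markers that the rule did not use, 5 were higher and 13 lower, 2 of them past 2-fold lower (Ifi27l2a and Cx3cr1), where 48.6% of all genes were lower and 0.5% past 2-fold lower. The list's median log2 ratio was -0.38. Lyz2 had a log2 ratio of -0.56 in monocytes and -0.78 in neutrophils. Of 13 measured transcription factors, 3 were higher and 10 lower, none past 2-fold, with a median of -0.23. Klf4, required for classical monocytes, was at 1256 and 786 CPM (-0.67), while Irf8 was at 289 and 291 CPM (0.01) and Spi1, the factor PU.1, at 441 and 433 CPM (-0.03). Zeb2 (-0.43), Bhlhe40 (-0.60) and Irf5 (-0.33) were lower, and Cebpa, a factor of early myeloid cells, was higher (0.41). Irf8 and Spi1 thus lay between the quartiles of all genes.

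Nonclassical markers gave no single direction, with 3 of 7 measured genes higher and 4 lower. Nr4a1, the nuclear receptor that nonclassical monocytes need, was at 398 and 280 CPM (-0.50), and Pou2f2 was at 101 and 68.6 CPM (-0.53). Treml4, an innate receptor of these cells, had 29 and 71 UMIs (0.84). Below the minimum of 50 UMIs, Fabp4, a fatty acid carrier, had 6 and 40 UMIs and Cd300e 2 and 17.

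Growth factor receptors were slightly lower: 1 of 8 measured genes beyond Csf1r was higher and 7 were lower, with a median of -0.27. Csf2ra, the receptor chain specific for GM-CSF, was at 291 and 248 CPM (-0.23), Csf2rb, the signaling chain, at 216 and 170 CPM (-0.34), and Csf2rb2, a mouse paralog that can share reads with Csf2rb, at 24.9 and 12.8 CPM (-0.75). Flt3, the receptor of early progenitors, was at 11.7 and 18.1 CPM (0.46). Tnfrsf11a, the receptor RANK through which osteoclasts form, was at 8.30 and 8.25 CPM in 21 and 29 cells.

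Chemokine and adhesion genes were mixed. Of 12 chemokines and receptors beyond Ccr2, 5 were higher and 7 lower, with a median of -0.35. Cxcr4, which holds cells in marrow, was at 308 and 235 CPM (-0.38) and Ccl6 at 490 and 363 CPM (-0.43). Cxcl10 was at 44.1 and 20.8 CPM, with 81.2% of its control UMIs in 1 cell. Of 11 adhesion and egress genes, 3 were higher and 8 lower, with a median of -0.08. Klf2, a transcription factor, was at 469 and 735 CPM (0.64). The integrin genes Itgb7 (-0.52) and Itga4 (-0.47) were lower.

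Inflammatory genes were mostly higher in pooled level. Of 13 measured genes, 11 were higher and 2 lower, with 2 past 2-fold higher (Cxcl2 and Tnf; background 0.354%) and a median of 0.38. Tnf was within 2-fold with 20 CPM added, and also without the monocytes that held over 5% hemoglobin. Il1b, the cytokine interleukin-1 beta, was at 133 and 265 CPM (log2 ratio 0.97) and had a UMI in 98 control and 92 GC monocytes. In neutrophils Il1b was at 3076 and 2159 CPM. Tnf was at 21.8 and 51.1 CPM in 51 and 63 cells, and Ptgs2, the inducible cyclooxygenase, at 18.9 and 40.2 CPM in 29 cells of each library. For Il1b and Ptgs2 the higher pooled level thus came without more cells with a UMI. Nfkbiz, a cofactor of NF-kB, was at 59.6 and 93.9 CPM (0.62). The list's median was 0.99 outside the cell cycle and 0.03 among cycling monocytes. Nos2 and Il12b had no UMI.

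Among antiinflammatory and M2 genes (those of alternatively activated macrophages), Chil3 was past 2-fold and several others were at or near 0 UMIs. Retnla and Il4 had no UMI, and Mrc1, the mannose receptor, had 8 and 3. The hemoglobin scavenger receptor Cd163 had 9 and 1 UMIs. Bmp2, a bone-inducing growth factor, had 1 UMI in each. Il10 had no UMI in the control and 23 in the GC library, in 6 cells, with 12 of them in 1 cell. Tgfb1, which is widely expressed, was at 275 and 195 CPM (-0.49). Levels near 1 UMI allow no statement on a difference.

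MHC class II genes were higher in sum, while Cd74 was found in fewer cells. Of 6 measured genes, 4 were higher and 2 lower, and the sum was 724 and 871 CPM. Cd74, the invariant chain, was at 299 and 366 CPM, but it had a UMI in 84 control and 54 GC monocytes. H2-Aa, an antigen-presenting chain, was found in 18 and 15 cells, with 37.6% and 23.4% of its UMIs in 1 cell. Thinned, 9.25% of control and 5.70% of GC monocytes kept at least 2 UMIs of the list as the mean over all draws. In 1 draw the shares were 8.44% (5.16 to 12.9) and 4.87% (2.45 to 8.54), beside 34.8% and 26.7% in a draw from callus cells. Without thinning, 73.8% and 55.3% of monocytes had at least 2 UMIs of the list. Outside the cell cycle the sum was 864 and 1813 CPM, and among cycling monocytes 575 and 146 CPM.

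Fc and pattern receptors were 4 higher and 7 lower of 11, with a median of -0.15. Fcgr4, a low-abundance Fc receptor of nonclassical monocytes, was at 11.5 and 41.2 CPM (3.60-fold higher, 2.53 to 5.23) in 29 and 65 cells (within 2-fold with 20 CPM added), while Fcgr1, the high-affinity Fc receptor, was at 36.9 and 20.8 CPM (-0.70) and Tlr2, which senses bacterial lipoproteins, at 261 and 165 CPM (-0.65). Lysosomal genes were 2 higher and 9 lower of 11, with a median of -0.31. Psap was at 2842 and 2184 CPM (-0.38), Cd68 at 208 and 142 CPM (-0.54) and Ctsb at 743 and 543 CPM (-0.45), with 23.1% of the control Ctsb UMIs in 1 cell. Without the cell that held most UMIs of each gene, Ctsb came to -0.11 and the list's median to -0.08.

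Fatty acid and lipid genes had medians within the quartiles of all genes, and glycolysis genes stood above them. Fatty acid oxidation genes were 4 higher and 5 lower of 9, with a median of -0.04 and a range from -0.10 to 0.33, and the sign of this median depended on the gene minimum. Lipid uptake and storage genes were 4 higher and 7 lower of 11, with a median of -0.17. The lipid-droplet protein Plin2 was at 248 and 346 CPM (0.47). Cd36, the fatty acid transporter, was at 23.5 and 10.4 CPM, and 78.0% of its control UMIs came from 1 cell; it had a UMI in 8 and 13 monocytes. Without the cell with most UMIs of each gene the lipid median was 0.08. Glycolysis genes were 10 higher and 3 lower of 13, with a median of 0.24.

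Secreted and granule genes were 4 higher and 9 lower of 13, with a median of -0.11. Beside Chil3, the matrix genes Vcan (239 and 453 CPM, log2 ratio 0.91) and Thbs1 (647 and 967 CPM, 0.58), which encodes thrombospondin-1, were higher, and Plac8 was lower (-0.43). Vcan had a UMI in 133 and 172 monocytes, and after thinning in 20.5% and 33.6% as the mean over all draws, against 17.8% and 34.5% in 1 draw and 23.1% and 27.9% in another. Neutrophils kept Vcan in 0.224% and 0.190% of cells as that mean. Immediate early and heat shock genes, which digestion of tissue can induce, were 2 higher and 9 lower of 11, with a median of -0.16; Hspa1a was at 38.1 and 14.1 CPM and Fos at 581 and 412 CPM. Hmox1 had a log2 ratio of 1.04, with a UMI in 84 and 122 cells. It was within 2-fold with 20 CPM added, with S100a8 and S100a9 under 1.5%, and outside the cell cycle.

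Many monocytes were in the cell cycle. With at least 4 UMIs of 36 S and G2/M phase genes after thinning in 1 draw, 64 of 225 control monocytes (28.4%, 22.6 to 34.8) and 82 of 226 GC monocytes (36.3%, 30.01 to 42.9) counted as cycling, and the intervals overlapped. The mean over all draws was 27.8% and 37.3%. Since this cut is on a continuous count, 27 and 23 cells lay at 3 or 4 UMIs. Of 18 S phase genes 18 were higher in the GC library (51.4% of all genes were), with a median of 0.34 and a range from 0.13 to 0.76. Of 18 G2/M genes 16 were higher, with a median of 0.15. None was past 2-fold. As means over all draws, progenitors kept at least 2 S phase UMIs in 69.6% and 65.0% of cells and neutrophils in 3.08% and 2.88%, beside 23.8% and 31.4% of monocytes. Cycling monocytes held more UMIs, with a median of 25254 and 24380 against 10907 and 9497 for the others.

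Cycling and other monocytes differed within each library. Mki67, the proliferation antigen, was at 601 and 89.8 CPM in cycling and other control monocytes, which follows from the cut. Outside the cell-cycle genes, Chil3 was at 958 CPM in cycling and 2656 CPM in other control monocytes, and at 4400 and 9069 CPM in the GC library. Ctsg, a granule protease of progenitors, was at 318 and 43.2 CPM in control and 353 and 121 CPM in GC monocytes. Cx3cr1 was at 49.2 and 113 CPM in control and 11.8 and 61.8 CPM in GC monocytes. For Chil3, Fkbp5, Ifi27l2a and Cx3cr1 the GC over control ratio kept its direction within each state. The log2 ratio of Chil3 was 2.19 in cycling and 1.77 in other cells, of Fkbp5 1.38 and 2.29, of Ifi27l2a -2.63 and -2.19, and of Cx3cr1 -1.69 and -0.82. Not every result did so. The median of the MHC class II list was -2.66 in cycling and 1.22 in other cells, and Spp1 reversed to -0.78 outside the cell cycle.

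**Figure D5:**
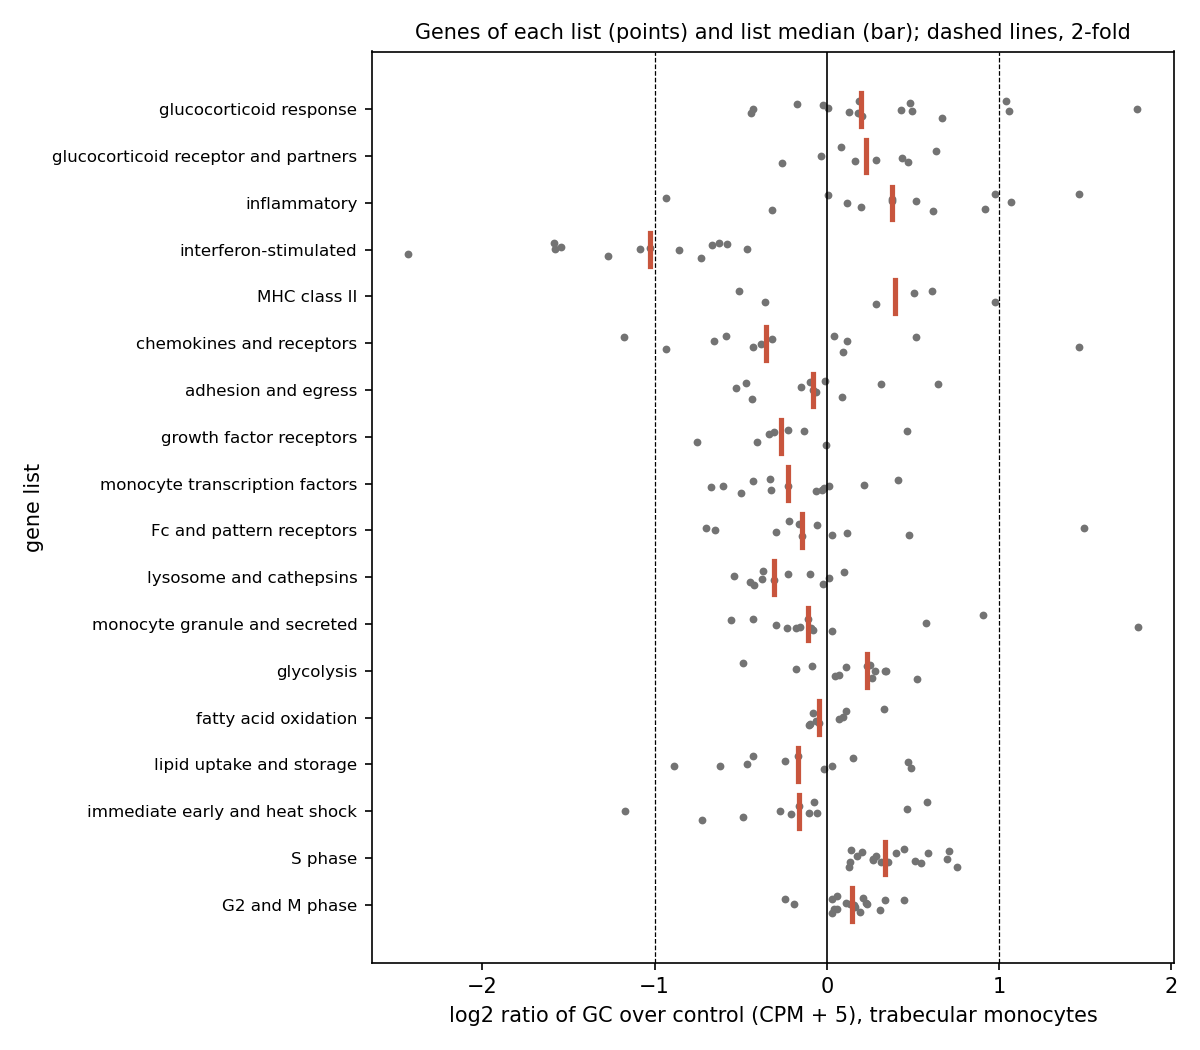
Log2 ratio of GC over control (5 CPM added) for each measured gene (gray points) of 18 lists in trabecular monocytes, with list medians as red bars and dashed lines at 2-fold. The interferon-stimulated list lies wholly below 0 with a median of -1.03, the S phase list wholly above it with a median of 0.34, and the other medians lie between -0.35 and 0.40.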

How the data were processed

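Single-cell RNA-Seq of 2 trabecular libraries (control and GC) was analysed, with 2 callus libraries for comparison. The deposited values are UMI counts per gene and barcode, not normalized. The authors made them with Cell Ranger and Seurat (5.0.1 and 3.2.0 in the submitters' processing notes) on mm10. The matrix headers name a different Cell Ranger version, and which was used is not known here. Full barcode lists of 6794880 were deposited for both trabecular libraries. The labels name a kit version that a list of this length does not match. Depth per library was 41239842 (control) and 45876714 (GC) UMIs.

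Barcodes with at least 500 UMIs, at least 200 genes and at most 10% mitochondrial UMIs were kept, and no doublet caller was applied in the main analysis. Monocytes were chosen by the stated UMI rule. Their UMIs were summed per library and expressed as CPM, and log2 ratios had 5 CPM added, for genes with at least 50 UMIs. With 1 library per condition no test was possible. Intervals were exact Poisson, exact conditional (ratios) and Clopper-Pearson (shares), all at 95%. Progenitors were barcodes with Elane, Mpo and Prtn3 at 1% of UMIs or more, and neutrophils those with S100a8 and S100a9 at 3% or more and Ngp, Camp and Ltf under 1%. A barcode could meet both definitions, so these classes overlap. The named genes were the 10 highest and 10 lowest log2 ratios at 50 CPM or more in either library and the members of 35 gene lists. The members of the rule and the lists were chosen with earlier results of these data known. Mx1, Clec7a and Aldoa were not analysed here, and 6 other list members are counted with their lists but not reported here. Of 368 list symbols 365 were used. Promoters were RefSeq windows. Intervals came from scipy 1.17.1 and doublet scores from scikit-learn 1.9.0, under Python 3.11.15 with pandas 2.3.3, numpy 2.4.6 and, for plots, matplotlib 3.10.9, and the ratio and interval steps were tested on simulated data. Alternatives were another pseudocount, gene minimum, marker sum, thinning, cell means, doublet scores and leaving out cells. Shares after thinning are exact means over all draws (hypergeometric) or single draws, as stated, and the exact means were added after the data were seen.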

Additional observations from a re-analysis of the deposited data

Results flagged for a closer look

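Of 7832 genes with at least 50 UMIs in both trabecular monocytes and callus cells chosen by the same rule, 4 were past 2-fold in opposite directions between GC and control. Each tissue had 1 library per condition, so the difference between tissues was not tested. Ifi203, of the Ifi200 family, had a log2 ratio of -1.17 in trabecular monocytes, while callus cells held 31.5 CPM in the control and 68.0 CPM in the GC library. Rsad2 (viperin) had log2 ratios of -1.58 in trabecular monocytes and 1.06 in callus cells, from 46 and 4 UMIs in the trabecular monocytes. Gpnmb had -2.42 and 1.25 in the same order, with 96% of the control trabecular UMIs in 1 cell. Zfp202 had -1.20, while callus cells held 1.17 and 7.39 CPM, with 59.6% of its control and 74.2% of its GC trabecular UMIs in 1 cell each.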

How the results depend on the processing

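No paired analysis was possible because each condition had 1 library. There were 28 summary results (shares, list medians and counts of genes). Of 353 pairs of a result and an alternative, 310 stayed within a set tolerance and 43 moved further. The tolerance was the counting interval for a share and 1.5 times for a count of genes. For a median over genes it was the median half-width of the 95% intervals of the single genes. That half-width was 0.58 for the interferon list, so a median within it could still shift. Genes past 2-fold higher came to 57 with 1 CPM added, 11 with 20 CPM, 17 with at least 200 UMIs, 62 as means over cells, 16 thinned to 1000 UMIs and 84 outside the cell cycle. Genes past 2-fold lower came to 82 with 1 CPM, 5 with 20 CPM, 13 with at least 200 UMIs and 15 thinned. The control share was 6.71% without hemoglobin-rich barcodes and barcodes with any Cd79a UMI. The inflammatory median was 0.87 over cell means and, over the list genes measured in those cells, 0.99 outside the cycle. The lysosome median was -0.12 over cell means, -0.20 thinned and -0.084 without the top cell of each gene. The lipid median was 0.11, 0.14 and 0.078 under the same 3 alternatives, turning its direction, and the fatty acid oxidation median, near 0 throughout, also took either sign. Thinned medians were 0.083 (glycolysis), 0.10 (S phase), 0.54 (G2/M) and 0.89 (neutrophil list), and outside the cycle 0.86 (S phase) and 0.65 (G2/M), in cells chosen by low counts of these same genes, so nothing is read from them. The median of the 10 leading genes over other barcodes, thinned, was 4.60 (control) and 4.56 (GC).

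Shares of cells followed depth. Thinned to 2000 UMIs in 1 draw and unthinned, cells with at least 2 S phase UMIs were 37.1% and 87.6% (control) and 48.0% and 84.1% (GC), with G2/M UMIs 35.3% and 61.8%, and 44.0% and 62.8%, with MHC class II UMIs 14.3% and 73.8%, and 8.89% and 55.3%, and with interferon-stimulated UMIs 90.6% and 100%, and 73.8% and 99.1%. Of the single genes named, 2 past 2-fold reversed, Ctla2a to -0.37 with a marker sum of at least 6 UMIs, and Spp1 to -0.78 outside the cell cycle. Doublet scores left out 0 control and 2 GC monocytes. Across alternatives Chil3 stayed between 1.77 and 1.99, Fkbp5 between 1.35 and 2.29, Ifi27l2a between -2.50 and -1.61, and the interferon median between -1.09 and -0.63. The cause of these shifts was not tested. The alternatives that took out the top cell, hemoglobin-high cells, cycling cells or denominator barcodes were chosen after seeing the data. With 1 library per condition and no mouse counts, the spread between mice is unknown, and genes under 50 UMIs were not ranked.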

Other observations

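Genes named here were chosen after their values were seen. Crispld2, a secreted protein known to respond to GC in airway muscle, had 3 UMIs in control and 128 in GC monocytes, a ratio of 39.6 with an interval from 13.3 to 195. The formyl peptide receptors Fpr1 and Fpr2, which sense bacterial peptides, had 6 and 46 and 41 and 166 UMIs. Cd38, an ectoenzyme that breaks down NAD, had 9 and 70 UMIs. In the other direction, the interferon-linked genes Oas3 (55 and 5 UMIs), Ddx58 (the RNA sensor RIG-I, 43 and 11), Ifih1 (the RNA sensor MDA5, 68 and 26), Parp14 (107 and 45), Mndal (390 and 186) and Lgals3bp (80 and 17) were lower in GC monocytes, none of them on the interferon list.

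A few cells held much of single genes. A control cell of 31114 UMIs held 192 of the 200 control Gpnmb UMIs, with 22 Csf1r but 1 Ly6c2, 1 Ccr2 and 1 F13a1 UMI, and also 71 Spp1, 64 Cd36, 83 Mfge8, 92 Selenop and 16 Atp6v0d2 UMIs. A GC cell of 62207 UMIs held 427 of 637 Spp1 UMIs, with 67 Ly6c2 and 34 Ccr2 UMIs. A GC cell of 16122 UMIs held 170 of 207 Ctla2a UMIs, with 1 Csf1r and 3 Ly6c2 UMIs, and Car2 and Flt3 were among its leading genes. The GC cell with 12 of 23 Il10 UMIs held 175 Cd74 and 36 H2-Aa UMIs beside 13 Ccr2 and 13 F13a1 UMIs. Pf4, a platelet chemokine, had 111 control UMIs in 13 cells, 43.2% of them in 1 cell, and 12 GC UMIs.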
